A study of Mus musculus with 24 samples.

Results

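The 10 genes described here encode very large cytoskeletal linker and motor proteins: Plec, Macf1, Dst, Syne1, Syne2, Sptan1, Sptbn1, Ank2, Ank3 and Dync1h1. They were taken by symbol from the 39253 genes listed in the count table, and all 10 were among the 13901 genes with enough reads to be tested. The RNA came from Neuro2A, a mouse neuroblastoma line, in 8 groups of 3 independent biological replicates. In 6 groups the cells were transiently transfected with plasmids for an RNA-cutting CRISPR effector and a crRNA, the guide RNA that directs it, and were harvested 48 hr later. The effectors were RfxCas13d, its high-fidelity variant HiFi-RfxCas13d, and DiCas7-11. Each was given either a crRNA against the mouse ataxin-2 transcript (mATXN2) or a non-targeted crRNA (NTG). The count columns name the control arm EV and the sample titles name it NTG, so what that arm received is in doubt. The remaining groups were untransfected Neuro2A and Neuro2A that received an antisense oligonucleotide (ASO), a short DNA-like strand, directed at the same transcript. All cells were wild-type and of 1 line, and the fraction of transfected cells in each culture is not known from these data.

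Plectin (Plec), Macf1 and dystonin (Dst) belong to the plakin family, which ties actin, microtubules and intermediate filaments to each other and to membrane junctions. Nesprins 1 and 2 (Syne1, Syne2) sit in the nuclear envelope and couple the nucleus to the cytoskeleton, while alpha II and beta II spectrin (Sptan1, Sptbn1) form a lattice under the plasma membrane to which ankyrins B and G (Ank2, Ank3) anchor channels and adhesion molecules. Dync1h1 is the heavy chain of cytoplasmic dynein, the motor that carries cargo toward microtubule minus ends and, in neurons, from the axon back to the cell body.

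All have a long coding sequence, which follows from taking genes of very large proteins and is given as a description, not as a finding. In the GENCODE M21 annotation the longest coding sequence was 26400 bases for Syne1, 23154 for Dst, 22068 for Macf1 and 20625 for Syne2. It was 14076 bases for Plec, 13935 for Dync1h1, 11781 for Ank2, 8612 for Ank3, 7497 for Sptan1 and 7092 for Sptbn1. The median over tested genes was 1419 bases. The Ank3 model is not a whole number of codons and has no bases outside the coding part, so its length may be understated. Only 203 other tested genes were at least as long as Sptbn1, and these are called the other long genes here.

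The promoter windows below are shown because the first pair belongs to the genes that rose the most in the crRNA comparisons and the third to a gene that rose little. They come from RefSeq on build GRCm38.p6 and run from 250 bases before to 50 bases after a gene start, 5′ to 3′ on the strand of the gene. The Dync1h1 window is chr12:110601145-110601444 on the + strand, the Syne2 window chr12:75818068-75818367 on the + strand, and the Sptan1 window chr2:29965310-29965609 on the + strand. Capitals mark the GC box letters GGGCGG, or CCGCCC for the other strand, and copies may overlap.
Dync1h1: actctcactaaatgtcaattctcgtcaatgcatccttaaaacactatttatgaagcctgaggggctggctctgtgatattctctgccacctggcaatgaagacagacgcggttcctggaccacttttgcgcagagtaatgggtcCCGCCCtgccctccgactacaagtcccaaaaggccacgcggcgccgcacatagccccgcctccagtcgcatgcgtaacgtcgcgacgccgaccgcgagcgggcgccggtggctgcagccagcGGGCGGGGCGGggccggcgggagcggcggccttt
Syne2: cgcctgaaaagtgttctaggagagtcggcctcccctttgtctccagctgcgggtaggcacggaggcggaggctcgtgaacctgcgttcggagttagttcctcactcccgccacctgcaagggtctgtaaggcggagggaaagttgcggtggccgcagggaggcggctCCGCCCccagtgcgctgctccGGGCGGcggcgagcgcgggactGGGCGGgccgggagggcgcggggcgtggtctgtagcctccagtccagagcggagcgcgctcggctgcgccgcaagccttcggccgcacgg
Sptan1: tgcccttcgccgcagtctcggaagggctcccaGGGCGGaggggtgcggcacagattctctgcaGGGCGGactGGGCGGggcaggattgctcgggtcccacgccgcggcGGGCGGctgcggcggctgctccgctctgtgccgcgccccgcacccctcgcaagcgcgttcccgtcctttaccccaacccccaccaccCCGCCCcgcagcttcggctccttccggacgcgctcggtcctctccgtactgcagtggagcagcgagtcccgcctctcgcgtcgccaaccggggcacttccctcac
The Dync1h1 and Syne2 windows held 3 copies each and the Sptan1 window 5. Of 32851 promoter windows of this length, 35.7% held at least 1 copy. The letters CCAAT (or ATTGG) and TATAAA (or TTTATA) were in none of the windows of these 3 genes, against 37.4% and 13.6% of all windows. GC content was 62.3% for Dync1h1, 71% for Syne2 and 73.3% for Sptan1, above the median of 52.7% over all windows. Of the 10 genes, 8 had a window in the RefSeq table, with 15 windows in all, and 6 of the 15 held a GC box.

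Library totals were between 12665725 and 22504999 counts, with a median of 16478419 and the highest totals in the ASO group (21874644 to 22504999). The 10 genes together held between 0.225% and 0.313% of the counts of a library. Neuronal and sympathoadrenal markers were detected, for example Tubb3 at a median of 349 CPM (counts scaled to library size) and Hand2 at 384 CPM, while Aqp4 was at 0 in all 24 libraries and Mog, Cdh5 and Ptprc were below 0.2 CPM. Mbp (11.4 CPM), Pecam1 (7.59 CPM) and Pdgfra (5.15 CPM) were detected at low medians. Atxn2, the targeted gene, had a log2 fold change of -0.10 ± 0.04 (SE, n = 3 per group, adjusted p = 0.178) with RfxCas13d. It fell by 0.23 with HiFi-RfxCas13d (adjusted p = 0.00157), by 0.20 with DiCas7-11 (adjusted p = 0.00557) and by 1.25 with the ASO (adjusted p = 1.65e-19).

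To compare the genes with each other, CPM was divided by transcript length in kb. In untransfected cells the spectrins stood highest, Sptbn1 at 89.5 ± 1.59 CPM per kb (SD, n = 3) and Sptan1 at 81.2 ± 1.64. Dync1h1 followed at 20.3 ± 1.65 and Ank3 at 18.1 ± 0.737, and the ranges of these neighbours overlapped. Plec reached 11.9 ± 0.460, Ank2 8.40 ± 0.728 and Dst 7.40 ± 0.720 CPM per kb, of which the last pair overlapped. Macf1 at 4.96 ± 0.336, Syne2 at 3.25 ± 0.466 and Syne1 at 1.57 ± 0.127 were the lowest, each apart from its neighbours. Both subunits of the spectrin lattice thus stood well above the other members. These values rest on the longest annotated isoform of each gene, and the isoform used in Neuro2A was not determined.

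**Figure D1:**
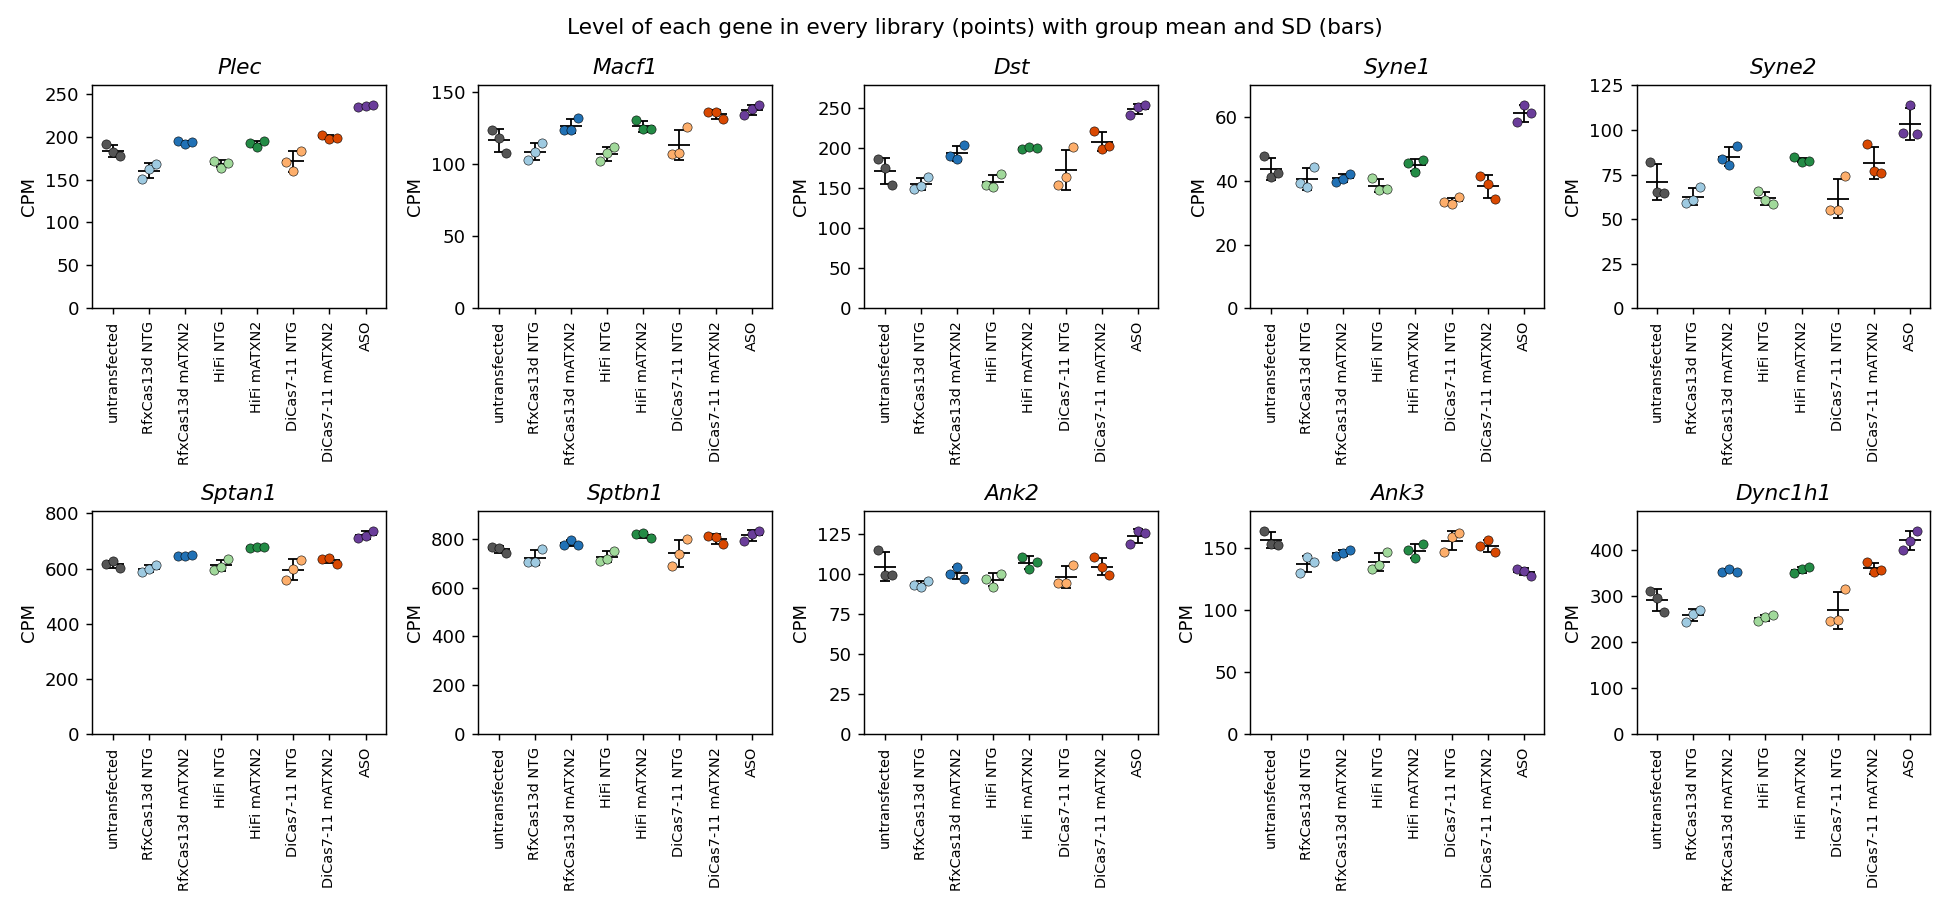
Level of each of the 10 genes in CPM (y axis, from 0) in the 24 libraries, by group on the x axis, with points for libraries, a bar for the mean and whiskers for 1 SD (n = 3). In the Dync1h1 panel all 9 mATXN2 libraries lie between 349.7 and 374 CPM, above the highest NTG library at 315 CPM, and the ASO libraries lie at 399.6 CPM and above, while in the Ank3 panel the ASO group has the lowest mean.

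The first question was whether the linkers and the motor changed when an effector carried the mATXN2 crRNA in place of NTG. Plec, Macf1, Dst, Syne2 and Dync1h1 rose with each of the 3 effectors, and Sptan1 and Sptbn1 rose as well with HiFi-RfxCas13d. No member fell. By edgeR's quasi-likelihood test at an adjusted p under 0.05, 5 of 10 members were higher with RfxCas13d, where 1.39% of all tested genes were called and 0.914% were called higher. With HiFi-RfxCas13d 7 of 10 were higher, against 0.295% of genes called and 0.281% called higher. With DiCas7-11 5 of 10 were higher, against 0.942% of genes called and 0.554% called higher. The median log2 fold change of the members was 0.16, 0.21 and 0.20 in the same order, beside 0.0016, -0.0010 and -0.00098 over all tested genes. The 3 comparisons have no library in common. In bulk samples, fewer cells with a transcript and less of it per cell cannot be told apart.

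Dync1h1 had the largest rise and the smallest adjusted p of the 10 genes with each effector. With RfxCas13d its level was 243, 261 and 270.2 CPM in the NTG libraries and 353, 359 and 352 CPM in the mATXN2 libraries. With HiFi-RfxCas13d it was 245, 254 and 257 CPM in NTG and 349.7, 358 and 362 CPM in mATXN2. With DiCas7-11 it was 245, 247 and 315 CPM in NTG and 374, 352 and 355 CPM in mATXN2. In each effector every mATXN2 library was above every NTG library, and NTG replicate 3 of DiCas7-11 was well above the other NTG libraries. The log2 fold change was 0.46 ± 0.06 (SE, adjusted p = 9.41e-05) with RfxCas13d, 0.50 ± 0.06 (adjusted p = 5.15e-05) with HiFi-RfxCas13d and 0.42 ± 0.06 (adjusted p = 0.00128) with DiCas7-11. These are rises of 37.2%, 41.4% and 33.9%.

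The nesprins differed from each other. Syne2, the larger riser, was at 59.0, 60.7 and 67.9 CPM in NTG and 84.0, 80.4 and 90.9 CPM in mATXN2 with RfxCas13d. With HiFi-RfxCas13d it was at 65.9, 60.5 and 58.7 CPM in NTG and 84.7, 82.3 and 82.4 CPM in mATXN2. With DiCas7-11 it was at 55.3, 55.1 and 74.2 CPM in NTG and 92.0, 77.0 and 75.7 CPM in mATXN2. The groups did not overlap in any effector, although with DiCas7-11 the highest NTG library (replicate 3) came close to the lowest mATXN2 library. The log2 fold changes were 0.44 ± 0.10 (adjusted p = 0.0161), 0.43 ± 0.09 (adjusted p = 0.0351) and 0.41 ± 0.10 (adjusted p = 0.0289). Syne1, the member with the lowest level, was at 39.3, 38.0 and 44.5 CPM in NTG and 39.7, 40.6 and 42.3 CPM in mATXN2 with RfxCas13d, and the groups overlapped. Its log2 fold change was 0.00 ± 0.07 there (95% interval -0.14 to 0.14), 0.23 ± 0.07 (adjusted p = 0.212) with HiFi-RfxCas13d and 0.19 ± 0.07 (adjusted p = 0.201) with DiCas7-11.

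The plakin family genes moved by smaller amounts. Dst was at 149, 152 and 164 CPM in NTG and 189.8, 187 and 205 CPM in mATXN2 with RfxCas13d. It was at 155, 152 and 168 CPM in NTG and 199, 202 and 201 CPM in mATXN2 with HiFi-RfxCas13d. With DiCas7-11 it was at 154, 164 and 202 CPM in NTG and 222, 199.6 and 203 CPM in mATXN2. Here the DiCas7-11 groups overlapped through NTG replicate 3, and the others did not. The log2 fold changes of Dst were 0.32 ± 0.07 (adjusted p = 0.0132), 0.34 ± 0.07 (adjusted p = 0.00975) and 0.26 ± 0.07 (adjusted p = 0.0453). Plec, which binds intermediate filaments, had 151, 162 and 168 CPM in NTG and 195, 192 and 193 CPM in mATXN2 with RfxCas13d, and 172, 164 and 169 against 193, 188 and 195 CPM with HiFi-RfxCas13d. With DiCas7-11 it had 171, 159.6 and 184 CPM in NTG and 203, 198 and 199 CPM in mATXN2. Every mATXN2 library of the 3 effectors was above the NTG libraries of its own effector, and the log2 fold changes of Plec were 0.27 ± 0.04 (adjusted p = 0.000284), 0.19 ± 0.04 (adjusted p = 0.0158) and 0.22 ± 0.04 (adjusted p = 0.00286). Macf1, which links actin to microtubules, was at 102 to 126 CPM over the 9 NTG libraries and at 123 to 136 CPM over the 9 mATXN2 libraries. It had log2 fold changes of 0.21 ± 0.05 (adjusted p = 0.0302), 0.24 ± 0.05 (adjusted p = 0.0330) and 0.25 ± 0.05 (adjusted p = 0.0130), without overlap in any effector.

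The spectrins, the most abundant members, changed little. Sptan1 was at 594, 607 and 634 CPM in NTG and 675, 679.7 and 678 CPM in mATXN2 with HiFi-RfxCas13d, with no overlap. Its log2 fold change there was 0.15 ± 0.03 (adjusted p = 0.0172), against 0.11 ± 0.03 (adjusted p = 0.0674) with RfxCas13d and 0.08 ± 0.03 (adjusted p = 0.219) with DiCas7-11. Sptbn1 had 0.17 ± 0.04 (adjusted p = 0.0249) with HiFi-RfxCas13d, 0.11 ± 0.04 (adjusted p = 0.113) with RfxCas13d and 0.11 ± 0.04 (adjusted p = 0.131) with DiCas7-11. For the ankyrins no comparison passed. Ank2 had log2 fold changes of 0.10 (adjusted p = 0.414), 0.15 (adjusted p = 0.340) and 0.09 (adjusted p = 0.426). Ank3 had 0.09 (adjusted p = 0.328) and 0.09 (adjusted p = 0.636) with the Cas13d effectors and -0.04 (adjusted p = 0.723) with DiCas7-11.

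**Figure D2:**
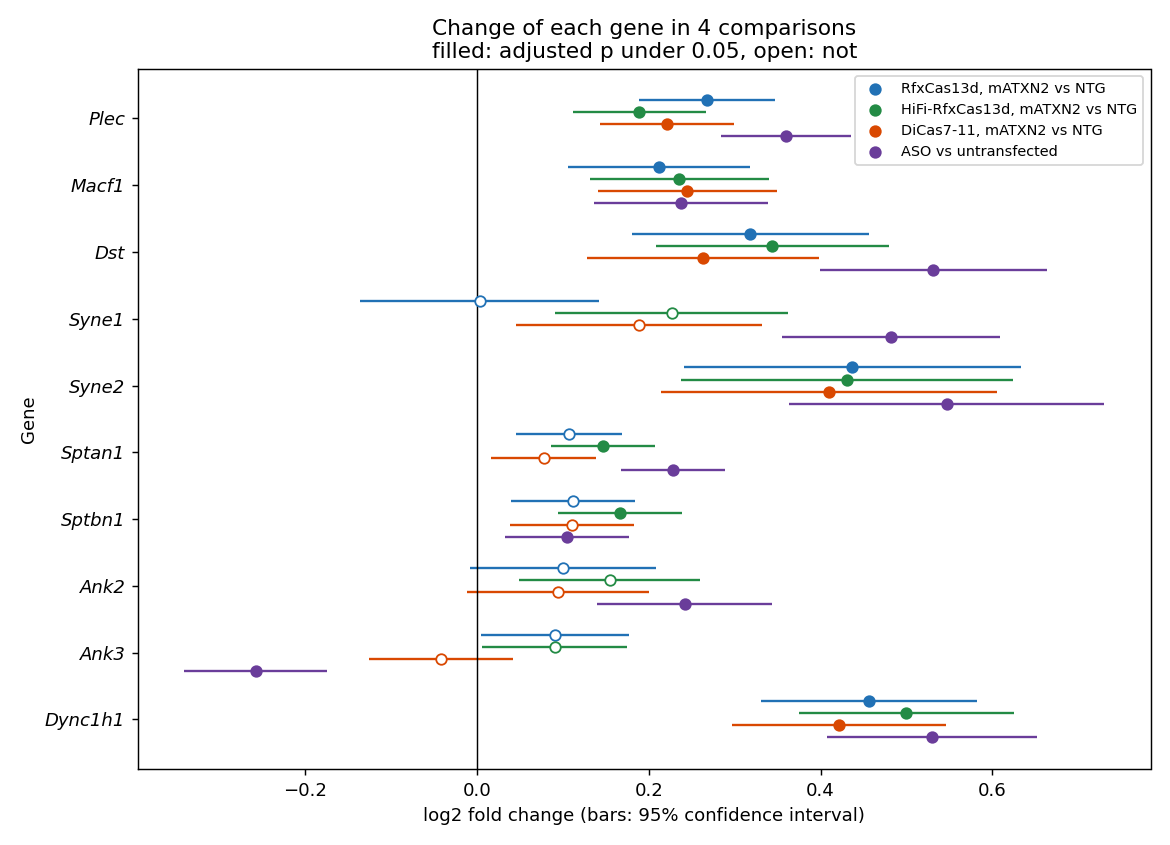
Log2 fold change (x axis) of each gene (y axis) for mATXN2 against NTG with the 3 effectors and for ASO against untransfected cells, with bars for the 95% interval. Filled points passed an adjusted p of 0.05 and open points did not. Dync1h1 and Syne2 lie between 0.41 and 0.55 in all 4 comparisons, and Ank3 is the member that lies below 0 with the ASO, at -0.26.

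Counted without a model, the 3 mATXN2 libraries lay wholly above the 3 NTG libraries for 9 of 10 members with RfxCas13d, the exception being Syne1, where 10.3% of all tested genes did so. With HiFi-RfxCas13d it was 9 of 10, the exception being Ank3, against 6.97% of genes. With DiCas7-11 it was 4 of 10 (Plec, Macf1, Syne2 and Dync1h1), against 7.25%. In the DiCas7-11 control group 1 library stood apart. The mean over the members of log2 CPM, each gene centred over the 24 libraries, was -0.22 in NTG replicate 1, -0.19 in replicate 2 and 0.01 in replicate 3. Replicate differences per gene in that group were 3.33 to 5.58 times counting noise, against 1.68 to 2.55 times in the other 7 groups. Without NTG replicate 3, 7 of 10 members were called higher with DiCas7-11, the additions being Sptan1 and Sptbn1, and Dync1h1 was at 0.55. The share of all tested genes called rose too, to 1.37% from 0.942%.

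With 1 library of a comparison left out, fewer members were called in most refits, and in most the share of all tested genes called was lower too. Leaving out NTG replicate 1, NTG replicate 2 or mATXN2 replicate 3 of RfxCas13d each left 2 of 10 calls, Plec and Dync1h1, beside 0.352%, 0.763% and 0.352% of all genes, against 1.39% with all 6 libraries. With HiFi-RfxCas13d, 2 calls were left without NTG replicate 1, mATXN2 replicate 1 or mATXN2 replicate 2, and 1 without NTG replicate 2 or mATXN2 replicate 3, beside 0.151% to 0.194% of all genes in these refits, against 0.295%. With DiCas7-11, 1 call was left without NTG replicate 2 (0.108% of all genes called), 2 without mATXN2 replicate 1 (0.223%), and 3 without NTG replicate 1 (4.47%) or mATXN2 replicate 2 (0.561%), against 0.942%. Dync1h1 was called in all 6 refits of each effector, at log2 fold changes of 0.42 to 0.49, 0.48 to 0.52 and 0.36 to 0.55 in the order of the effectors. When only the 6 libraries of a comparison entered the fit, 7 members passed with RfxCas13d, beside 2.55% of all genes, and 7 with HiFi-RfxCas13d, beside 0.655%. With DiCas7-11 0 of 10 passed in such a fit, Dync1h1 with an adjusted p of 0.0647, but only 1 of all 13901 genes did, so that count is no result about the members.

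Over the 3 effectors together, the mean response was tested with all 18 transfected libraries. All members except Ank3 were called higher, 9 of 10, against 5.19% of all tested genes called and 2.95% called higher. Dync1h1 had a log2 fold change of 0.46 ± 0.04 (adjusted p = 1.81e-09), Syne2 0.43 ± 0.05 (adjusted p = 6.95e-06), Dst 0.31 ± 0.04 (adjusted p = 4.07e-06) and Macf1 0.23 ± 0.03 (adjusted p = 6.47e-06). Plec rose by 0.23 ± 0.02 (adjusted p = 5.88e-08). The remaining rises were between 0.11 (Sptan1) and 0.14 (Syne1, adjusted p = 0.0319). Ank3 had 0.05 ± 0.02 (adjusted p = 0.311). Leaving out any 1 of the 18 libraries left 7 to 9 calls, beside 3.92% to 7.67% of all tested genes.

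The next question was whether the effectors differed in the size of the response. The difference of the responses was tested as an interaction, and 0 of 10 members and 0% of all tested genes passed in each of the 3 pairs of effectors by edgeR, and no member passed by DESeq2 or limma-trend. For Dync1h1 the response with HiFi-RfxCas13d minus that with RfxCas13d was 0.04 (95% interval -0.13 to 0.22), DiCas7-11 minus RfxCas13d was -0.04 (-0.21 to 0.14) and DiCas7-11 minus HiFi-RfxCas13d was -0.08 (-0.26 to 0.10). In each pair 1 member had an unadjusted p under 0.05. This was Syne1 for HiFi-RfxCas13d minus RfxCas13d, at 0.22 (unadjusted p = 0.0257, adjusted p = 0.743). In the other pairs it was Ank3, at -0.13 for DiCas7-11 minus RfxCas13d (adjusted p = 0.624) and at -0.13 for DiCas7-11 minus HiFi-RfxCas13d (adjusted p = 0.641). The calls of Sptan1 and Sptbn1 with HiFi-RfxCas13d therefore do not mark a tested difference between effectors.

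The control arms were set against untransfected cells to see how the genes differed there, although what these arms received is in doubt. These 3 comparisons and the ASO comparison share the untransfected libraries. With RfxCas13d, Plec fell by 0.20 (adjusted p = 0.00113) and Ank3 fell by 0.19 (adjusted p = 0.00288), so 2 of 10 members were called, against 11.3% of all tested genes called and 5.66% called lower. With HiFi-RfxCas13d 4 of 10 were called lower, against 20.9% of genes called and 10.6% called lower. Dync1h1 fell by 0.21 (adjusted p = 0.0171), Ank3 by 0.17 (adjusted p = 0.00322), Plec by 0.13 (adjusted p = 0.0183) and Syne1 by 0.19 (adjusted p = 0.0451). With DiCas7-11 Syne1 was the 1 call of 10, against 21.9% of genes called and 10.8% called lower. Its libraries read 33.3, 32.9 and 34.9 CPM in NTG and 47.9, 41.2 and 42.5 CPM in untransfected cells, without overlap, and it fell by 0.38 (adjusted p = 0.000213).

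In these control comparisons all members were below 0 except Dst with DiCas7-11, at 0.01. The members' medians were -0.15, -0.13 and -0.07, beside -0.0046, -0.0054 and -0.0062 over all tested genes. Read against the shares of all tested genes, the counts with RfxCas13d and DiCas7-11 are near or below the background and are no result about the members. The untransfected libraries also differed among themselves: the members' centred mean was 0.07 in replicate 1, -0.05 in replicate 2 and -0.11 in replicate 3, the library with the lowest total. Without untransfected replicate 1 the HiFi-RfxCas13d count was 1, without replicate 2 it was 2, and without HiFi-RfxCas13d NTG replicate 2 it was 2. Without untransfected replicate 3 the RfxCas13d count was 4 and the DiCas7-11 count 2, and without DiCas7-11 NTG replicate 3 the latter was 5. Over all tested genes, 15.7% to 16.7% were called in these refits with HiFi-RfxCas13d, 8.34% with RfxCas13d, and 18.2% and 19.5% with DiCas7-11.

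The ASO comparison addressed the same transcript by another route. No group received a control oligonucleotide, so the part of oligonucleotide delivery in these differences was not tested. All 10 members were called, against 42.7% of all tested genes, 9 of them higher (21% of genes) and Ank3 lower (21.7% of genes). Dync1h1 was at 311, 296 and 265 CPM in untransfected cells and 399.6, 420.1 and 441 CPM with the ASO, without overlap, a log2 fold change of 0.53 ± 0.06 (adjusted p = 2.94e-08). Syne2 rose by 0.55 ± 0.09 (adjusted p = 1.27e-05) and Dst by 0.53 ± 0.06 (adjusted p = 9.88e-08). Syne1 was at 58.5, 63.8 and 61.5 CPM with the ASO, above every library of the other groups, and rose by 0.48 ± 0.06 (adjusted p = 2.84e-07). The other rises were 0.36 for Plec, 0.24 for Macf1, 0.24 for Ank2, 0.23 for Sptan1 and 0.10 for Sptbn1 (adjusted p = 0.0162).

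Ank3 went the other way from Ank2. It was at 163, 153 and 152 CPM in untransfected cells and 133, 131 and 128 CPM with the ASO, without overlap, and fell by 0.26 (SE 0.04, adjusted p = 7.61e-06). In the transfected groups its means were between 137 and 156 CPM. The median over the 10 members was 0.30, beside -0.0021 over all tested genes and 0.20 over the other long genes. The ASO libraries were also the deepest, and the part of depth in these differences was not tested. Leaving out 1 library left 9 or 10 calls, beside 37.1% to 39.6% of all tested genes.

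The members' changes stood beside those of other long genes. Among the 203 other long genes the median log2 fold change was 0.10 with RfxCas13d, 0.12 with HiFi-RfxCas13d and 0.10 with DiCas7-11, and 17.7%, 10.8% and 16.7% of them were called, all of them higher. For the mean over effectors 44.3% and for the ASO 66% of them were called. Genes over 10 kb, 57 without the members, had medians of 0.19, 0.23 and 0.19 with the 3 effectors and 0.40 with the ASO. Genes between 2 and 4 kb had medians of -0.02, -0.01, -0.01 and 0.02 in the same order. Ranked with the other long genes, 213 in all, Dync1h1 was at place 5 from the highest and Syne2 at place 6 for the mean over effectors, while Sptbn1 was at place 98, Sptan1 at 113 and Ank3 at 155. Over the 10 members Spearman's correlation of this change with coding length was 0.58, and over the 203 other long genes 0.39, both descriptions across genes of the same libraries.

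**Figure D3:**
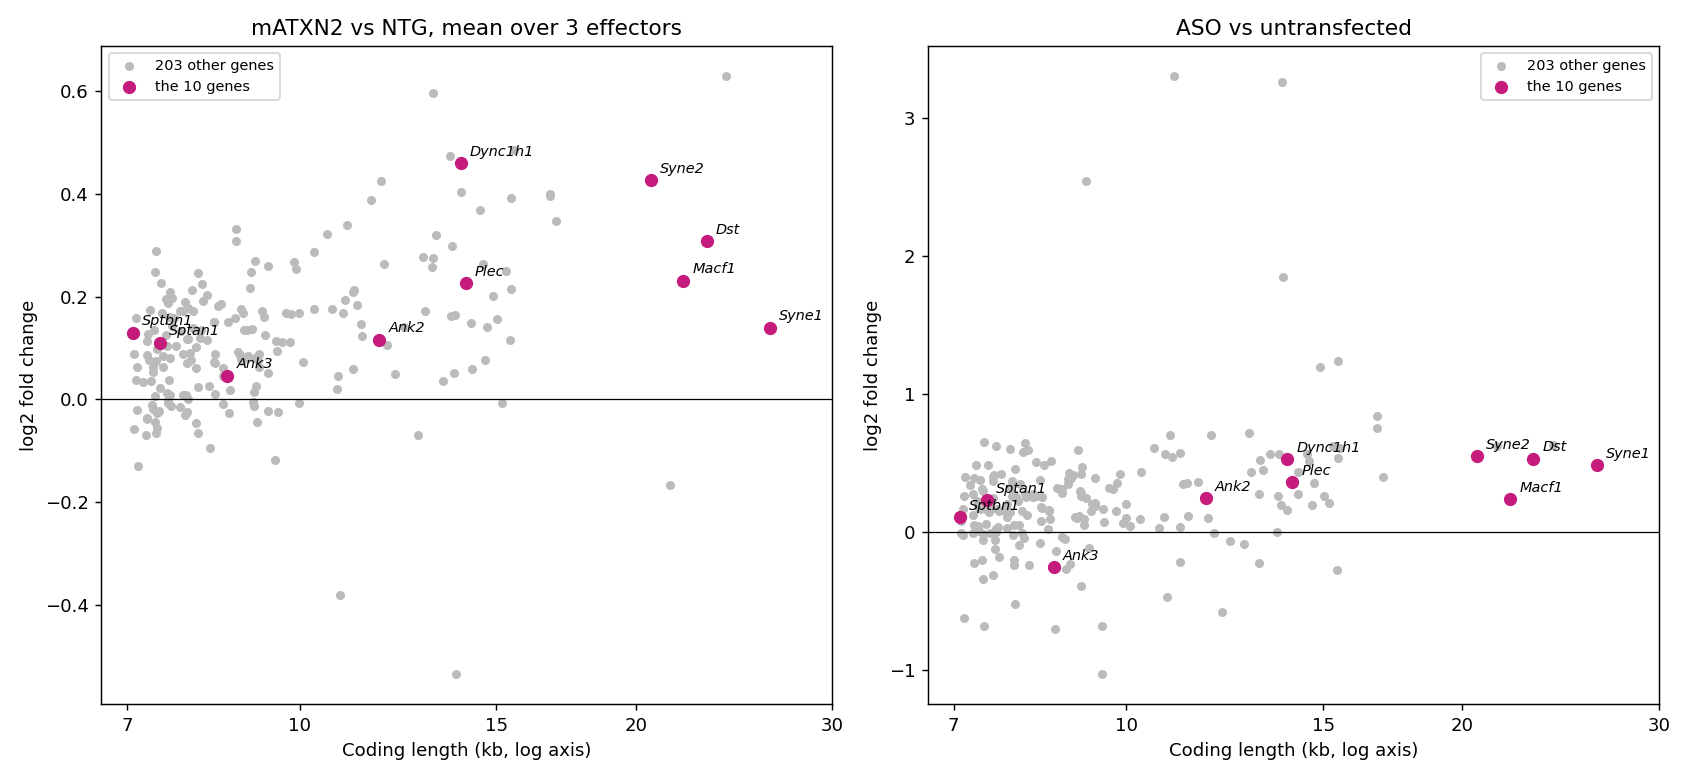
Log2 fold change (y axis) against coding length in kb (x axis, log scale) for the 10 genes (labelled) and 203 other genes at least as long as the shortest of them, for the mean over the 3 effectors (left) and for the ASO (right). Most points lie above 0 in both panels, Dync1h1 and Syne2 lie at 0.46 and 0.43 on the left, and Ank3 is below 0 on the right.

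Library by library, the mean of the members and the median of the other long genes rose and fell together. Over the 24 libraries Pearson's correlation was 0.97 and Spearman's 0.92, as a description of points that share groups, depth and normalization. NTG replicate 3 of DiCas7-11, with a members' mean of 0.01, also had a long-gene median of 0.06, beside -0.10 and -0.11 in the other NTG libraries of that effector. The ASO libraries were highest on both, with members' means of 0.23, 0.30 and 0.29 and long-gene medians of 0.15, 0.17 and 0.17. The members' changes were therefore tested again with the trend on coding length taken out.

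**Figure D4:**
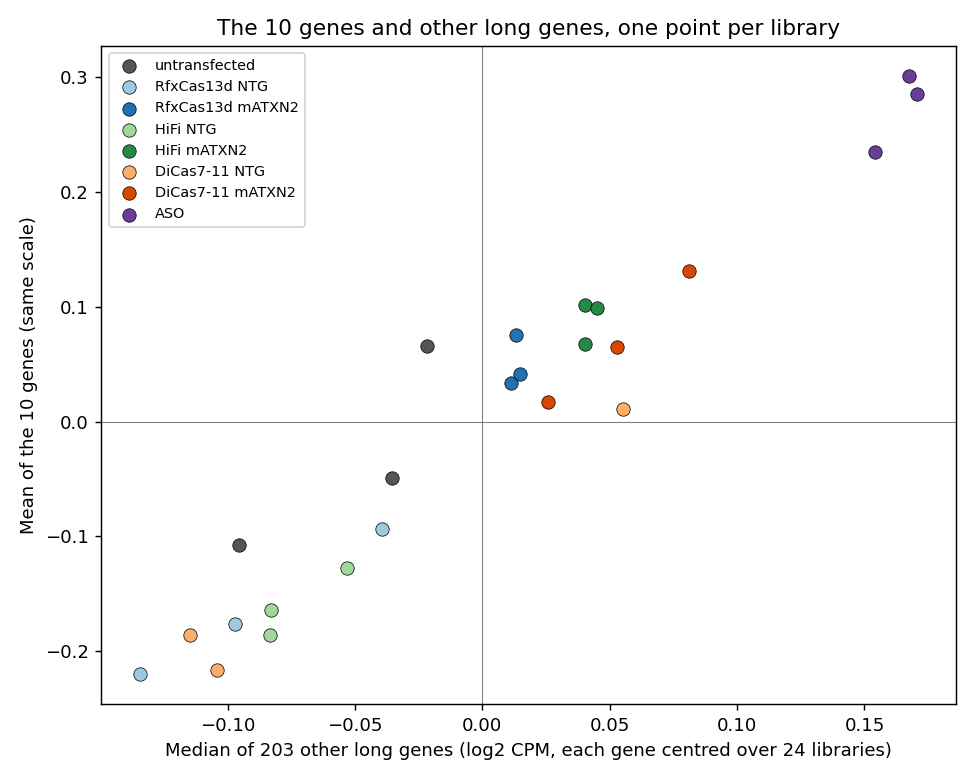
Mean of the 10 genes (y axis) against the median of 203 other long genes (x axis), both as log2 CPM centred per gene over 24 libraries, with 1 point per library coloured by group. The ASO libraries are at the upper right, the NTG libraries at the lower left except DiCas7-11 replicate 3 (0.06, 0.01), and the mATXN2 libraries in between.

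For that test, a smooth curve of each library's log2 ratio on coding length was subtracted within the same fit. After this, Dync1h1 was still called higher with every effector, at 0.30 (adjusted p = 1.24e-05) with RfxCas13d, 0.33 (adjusted p = 2.74e-06) with HiFi-RfxCas13d and 0.27 (adjusted p = 0.000146) with DiCas7-11. It was the 1 member called with HiFi-RfxCas13d (0.108% of all tested genes called) and with DiCas7-11 (0.82% called). With RfxCas13d 2 of 10 were called (0.95% of genes), since Syne1 was then lower at -0.25 (adjusted p = 0.0491, and 0.0512 when GC content was taken out too). Syne2 kept 0.22 (adjusted p = 0.132), 0.20 (adjusted p = 0.514) and 0.21 (adjusted p = 0.154). Plec, Dst and Macf1 were between -0.01 and 0.11 and did not pass.

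For the mean over effectors 5 of 10 members stayed called higher after the correction, against 4.58% of all tested genes. They were Dync1h1 at 0.30 (adjusted p = 5.13e-11), Syne2 at 0.21 (adjusted p = 0.00239), Dst at 0.07, Plec at 0.06 and Sptbn1 at 0.06. With the ASO 7 of 10 were called, against 42.4% of genes. Dync1h1 was at 0.25 (adjusted p = 4.28e-07), Syne2 at 0.18, Dst at 0.14, and Sptan1 and Plec at 0.08. Macf1 turned from 0.24 to -0.15 (adjusted p = 0.000214), and Ank3 was at -0.43 (adjusted p = 8.61e-11). Few genes are as long as Macf1, Dst, Syne1 and Syne2, so the curve is least certain for these, and the coding length is that of the longest annotated isoform.

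**Figure D5:**
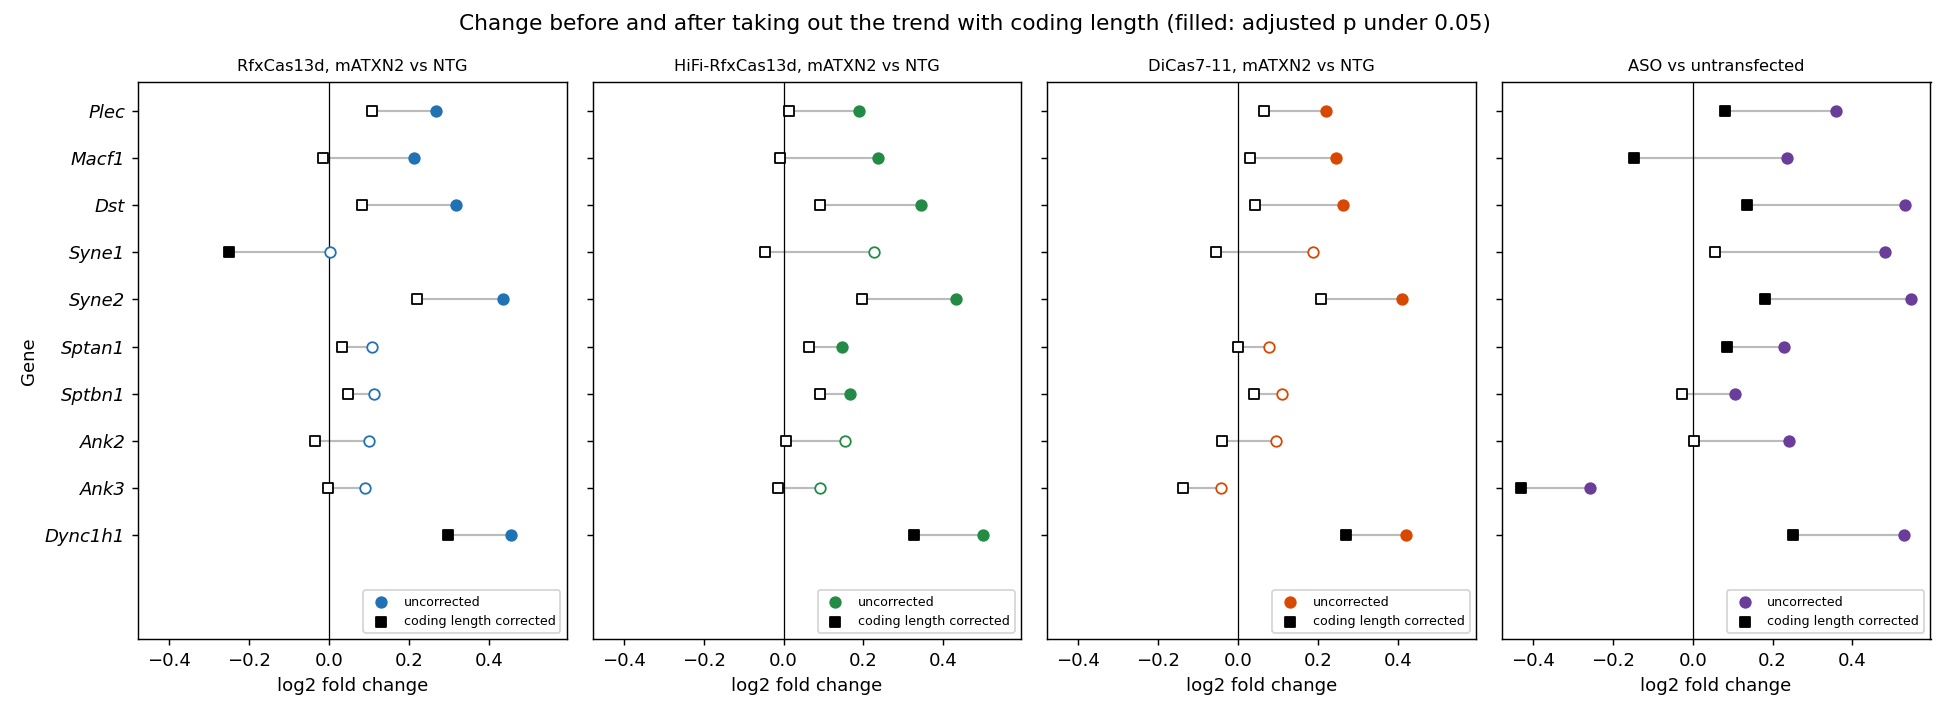
Log2 fold change (x axis) of each gene (y axis) before (circles) and after (squares) the trend with coding length was taken out, in 4 comparisons. Filled symbols passed an adjusted p of 0.05. The corrected Dync1h1 values are filled in all 4 panels, between 0.25 and 0.33, while Macf1 goes to -0.15 and Ank3 to -0.43 with the ASO.

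The partners of these proteins are mostly shorter genes. In 9 lists with 88 partner genes, 67 were tested. With RfxCas13d and HiFi-RfxCas13d 0 of 67 passed by edgeR, beside 1.39% and 0.295% of all tested genes. An unadjusted p under 0.05 was reached by 11 and 8 of them, 16.4% and 11.9%, beside 13.8% and 7.45% of all tested genes. With DiCas7-11 1 passed (1.49%, beside 0.942% of all tested genes), the integrin gene Itgb1, which fell by 0.09 (adjusted p = 0.0274). With so few calls over all genes, these counts do not set the partners apart. The dynein intermediate, light intermediate and light chains, which bind the heavy chain in the motor, had 8 tested genes of 10 and no call with any effector, with 2, 2 and 3 at an unadjusted p under 0.05 and medians of 0.01, -0.02 and -0.03. The 21 tested genes for dynactin and dynein regulators likewise had no call with any single effector, with 4, 2 and 3 at an unadjusted p under 0.05.

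For the mean over effectors 2 partner genes rose and 5 fell, 10.4% of those tested beside 5.19% of all tested genes. The pair that rose were long genes: Utrn (utrophin, coding length 10293 bases) by 0.18 (adjusted p = 0.00224) and Dync2h1 (the dynein heavy chain of intraflagellar transport, 12942 bases) by 0.17 (adjusted p = 0.0123). Those that fell were the dynein adaptor Hook1 by 0.14 (adjusted p = 0.00105), the tropomodulin Tmod3 by 0.09, Epb41l2 by 0.08, the actin capping subunit Capza2 by 0.06 and Itgb1 by 0.04. The lists for the nuclear envelope partners of the nesprins (7 tested), for other spectrins (3), for microtubule plus-end proteins (8) and for plakins (1, Evpl) had no call here.

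Against untransfected cells, the control arms had 3 partner genes higher and 4 lower with RfxCas13d, 8 and 13 with HiFi-RfxCas13d and 5 and 13 with DiCas7-11. These are 10.4%, 31.3% and 26.9% of the partner genes tested, beside 11.3%, 20.9% and 21.9% of all tested genes, and nothing is read from them about the partners as a group. Sun2, the inner nuclear membrane protein that binds nesprins, fell by 0.17, 0.25 and 0.31 in that order (adjusted p = 0.0134, 0.000279 and 1.85e-05). Capzb, an actin capping subunit, fell by 0.11, 0.16 and 0.13, and Epb41l1, a protein 4.1 of the spectrin network, rose by 0.15, 0.23 and 0.17. Clip1, a microtubule plus-end protein, rose by 0.21 with HiFi-RfxCas13d and by 0.30 with DiCas7-11. Sptbn4, another beta spectrin, fell by 0.29 and 0.43 with the same effectors. With the ASO 10 of the 67 rose and 23 fell, beside 21% and 21.7% of all tested genes, and these included 6 of 10 spectrin-actin junction genes that fell and Sun1 and Sun2, which fell by 0.25 and 0.27. Of the other dynein heavy chains 3 of 4 tested were higher with the ASO, Dync2h1 by 0.43, Dnah17 by 0.56 and Dnah10, a gene with so few counts that its fold is not given.

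Finally, the members were compared with each other and with all genes by their pattern over the 24 libraries. Between members the median Pearson correlation was 0.83, the highest 0.96 for Dst and Dync1h1, and the lowest -0.47 for Syne1 and Ank3. Within groups, with each group mean removed, the median was 0.64. The genes most like the members' mean, among 10903 with a mean of at least 50 counts, were Wdfy3 (Pearson 0.98), Hectd4 (0.97), Vps13c (0.97), Huwe1 (0.96) and Ubr4 (0.96). Their coding lengths were between 10581 and 15543 bases. Their log2 fold changes with RfxCas13d were 0.30, 0.33, 0.21, 0.27 and 0.59 in that order. These are descriptions over libraries that share groups and normalization.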

How the data were processed

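RNA-seq libraries (stranded mRNA kit, 101 cycles from one fragment end) of 24 Neuro2A samples were quantified by the authors with Salmon 1.5.2 on GRCm39, and summed to genes with tximport (lengthScaledTPM). The deposited values are expected counts for 39253 genes, with no scaling to library size, and totals of 12665725 to 22504999. Samples were grouped by their titles. Columns named EV and G12, where titles say NTG and G10, were matched by effector, arm and replicate number.

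Counts were rounded. The 13901 genes that reached 0.5 CPM in 3 or more samples were fitted with edgeR 4.0.16 in R 4.3.3 (TMM, quasi-likelihood, 1 coefficient per group, all 24 samples). P-values were adjusted by Benjamini-Hochberg over all tested genes within each comparison, at 0.05. DESeq2 1.42.0, limma-trend 3.58.1 (the approach of the study), other filters and scalings, a replicate block and leaving out libraries were alternatives. Length and GC content came from GENCODE M21 (GRCm38, another build than the counts) by Entrez identifier, for 87.3% of tested genes (coding length). The length correction subtracted a lowess curve (span 0.3) per library, with no correction for genes lacking a length. Scripts were tested on simulated data.

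The members and lists were chosen with earlier results of these data known. By rule, the text names all members, Atxn2, per partner list up to 3 genes with the smallest p and any calls numbering 3 or fewer, and 5 most-like genes. Other partner genes named were chosen after their values were seen. Replicates are independent by the design text. Correlations carry no p.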

Additional observations from a re-analysis of the deposited data

How the results depend on the processing

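The correction for coding length, leaving out libraries, fitting only the groups compared and dropping the filter on low counts each moved some counts of members called by over 1.5 times. In the order RfxCas13d, HiFi-RfxCas13d, DiCas7-11 for mATXN2 against NTG, the counts of 5, 7 and 5 became 2, 1 and 1 with the coding length correction and 1, 1 and 1 when GC content was corrected as well, since each correction subtracts the trend with length. Of all tested genes, 0.95%, 0.108% and 0.82% were called with the first correction, and 0.619%, 0.137% and 0.324% with both properties corrected. For the mean over effectors 9 became 5 and 4, beside 4.58% and 2.64% of all tested genes. Against untransfected cells, the HiFi-RfxCas13d control count of 4 became 2 with either correction, beside 21.4% and 20.8% of all tested genes. The RfxCas13d control count of 2 became 1 with both properties corrected, beside 11% of all tested genes. With DiCas7-11, 0 of 10 were called when only its own libraries entered the fit, where 1 of all 13901 genes passed. By DESeq2 it had 3 calls (1.17% of all tested genes), and the HiFi-RfxCas13d control count was 2 (17.3%). The cause was not tested. Without the filter on low counts, the control counts were 6, 8 and 4 in the order of the effectors. Of the genes then tested 6.48%, 11.7% and 12.1% were called, against 11.3%, 20.9% and 21.9% with the filter.

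Leaving out 1 library gave 2 to 5 calls for RfxCas13d, 1 to 5 for HiFi-RfxCas13d and 1 to 7 for DiCas7-11 with mATXN2 against NTG. Of all tested genes, 0.352% to 1.03%, 0.151% to 0.194% and 0.108% to 4.47% were called there. Their control arms against untransfected cells gave 2 to 4, 1 to 4 and 1 to 5 calls. In those refits 7.29% to 8.34%, 15.7% to 18.3% and 15.1% to 24.3% of all tested genes were called. The counts for the ASO (9 or 10), for the mean over effectors (7 to 9) and for the differences between effectors (0) stayed within 1.5 times the reported ones. DESeq2 size factors, limma-trend adjusted within each comparison and the authors' own gene filter kept all 11 counts. Limma-trend adjusted over 10 comparisons together, the form of adjustment in the study's methods, gave 7, 9 and 6 members for mATXN2 against NTG. Of all genes, 707, 269 and 636 were called there (193, 41 and 131 by edgeR). It gave 3, 3 and 1 members for the control arms (13.3%, 20.1% and 20.8% of all genes) and 10 for the ASO (36.1%). The methods do not name the 10 comparisons, so the set was assumed here, with each mATXN2 arm against untransfected cells among them.

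Samples with the same replicate number showed little likeness between groups: correlations of their deviations from the group means were between -0.06 and 0.05 over the comparisons. With the replicate number as a block the DiCas7-11 control count went from 1 to 2 (23.6% of all tested genes called). RfxCas13d with mATXN2 went from 5 to 6 (2.1%) and its control from 2 to 3 (13.1%), and no other count of members moved. More genes in all were called with the block: 292, 46 and 251 for mATXN2 against NTG, against 193, 41 and 131 without it. The block together with the coding length correction gave 2, 1 and 2 members for mATXN2 against NTG (1.58%, 0.187% and 1.77% of all tested genes). It gave 2 for the HiFi-RfxCas13d control (23.2%) and 2 for the DiCas7-11 control (24.3%).

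Sign changes are listed in full for members called in at least 1 setting of a comparison. They came almost always under the length correction, whose values are given in the order of length alone, GC content added and replicate block added. Macf1 went to -0.0148, -0.00098 and -0.0149 with RfxCas13d, to -0.0082, -0.0102 and -0.0085 with HiFi-RfxCas13d, and to -0.15, -0.16 and -0.15 with the ASO. Syne1 went to -0.25, -0.25 and -0.25 with RfxCas13d, to -0.0465, -0.0509 and -0.0454 with HiFi-RfxCas13d, and to -0.12, -0.12 and -0.12 for the mean over effectors. Ank2 went to -0.0230, -0.0267 and -0.0239 for the mean over effectors, and Sptbn1 to -0.0270, -0.0424 and -0.0273 with the ASO. With GC content added, Sptan1 was at -0.0134 with DiCas7-11, Ank2 at -0.0085 with the ASO, and Plec at 0.0127 in the HiFi-RfxCas13d and 0.0099 in the DiCas7-11 control comparison. Syne1 with RfxCas13d, at 0.00, ranged from -0.0434 to 0.0800 when 1 library was left out. Some values called in no setting also turned below 0 with coding length alone corrected, for mATXN2 against NTG. These were Ank2 with RfxCas13d (-0.0354) and DiCas7-11 (-0.0393), and Syne1 with DiCas7-11 (-0.0551). Ank3 did so with RfxCas13d (-0.0013), HiFi-RfxCas13d (-0.0133) and the mean over effectors (-0.0506). Other sign changes of values called in no setting are not listed.

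Having 3 replicates per group limits what can be seen, and the members differed in their standard errors on the log2 scale in the pairwise comparisons. These were 0.06 to 0.07 for Syne1, at 33 to 64 CPM, and 0.03 for Sptan1. They did not simply follow the level, since Syne2, with more counts than Syne1, had 0.09 to 0.10. Differences between effectors had standard errors of 0.04 to 0.14. Length and GC content come from the longest isoform in another genome build, and the expected counts do not separate isoforms.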
